A study of Mus musculus with 6 samples.

Results

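Genes of skeletal muscle were read on arrays of whole sciatic nerve, the large nerve of the hindlimb that runs between muscles. The set held 33 genes of the sarcomere, of calcium handling and of energy supply in muscle fibres. They were named by symbol, with earlier results of these data known. For each, the probe set with exactly 1 gene symbol was taken, and a gene with several was read from its brightest one, by the mean of all arrays. All 33 were measured, of 22180 genes in all. They were sorted by textbook knowledge into 14 genes of fast fibres, 7 of slow fibres and 12 of both fibre types. The nerves came from mice aged 10 months, 3 samples from littermates that were wild type and 3 from Srebf-1c KO mice, each on 1 Affymetrix whole-transcript array. Srebf-1c is a transcription factor known for driving fatty acid synthesis. No label names the kind of deletion, the strain or the sex. No label says that the samples of a group are separate mice either, and a p-value here covers the variation among the arrays at hand, which may be technical. Titles and genotype set the groups, although the source entry calls the KO samples wild type. Srebf1, the targeted gene, had a log2 intensity of 9.53, 9.55 and 9.70 in wild type and of 8.11, 8.06 and 8.04 in KO, so the arrays titled KO were the lower ones.

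Skeletal muscle fibres contract when myosin heavy chains pull on actin filaments, and the troponin complex makes this depend on calcium. Calcium is released from the sarcoplasmic reticulum through the ryanodine receptor, is pumped back by a calcium ATPase and is buffered in the store by calsequestrin. Fast and slow fibres build this machinery from different members of the same families: Myh4 (IIb), Myh1 (IIx) and Myh2 (IIa) are the heavy chains of fast fibres, of which IIa is the most oxidative, and Myh7 is that of slow fibres. Axons and Schwann cells, the cells that sheathe axons, are not known to make most of these proteins in quantity. The genes of such proteins therefore serve as a measure of muscle tissue on an array of nerve. This reasoning does not extend to Pvalb, a cytosolic calcium buffer, and the part of axons in its signal was not tested. In bulk RNA, fewer muscle cells and less RNA per muscle cell cannot be told apart.

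Upstream sequences of the 4 adult heavy chain genes are shown because these genes followed different arrays, as described further on. RefSeq windows of 300 bases, from 250 before to 50 after a start, were at hand for 26 of the 33 genes, on build GRCm38.p6. They are written 5′ to 3′ on the strand of the gene. Capitals mark matches, on either strand, to an E-box (CANNTG, bound by myogenic factors), to MCAT (CATTCCT), or to the MEF2 and CArG consensus motifs, each known from promoters of muscle genes. No window was at hand for Actn3, Tnnt3, Tnni2, Myoz1, Neb, Tcap and Myot. For Myh7, which has windows at 2 starts, the one at the downstream start is shown.
Myh4, chr11:67237562-67237861, plus strand: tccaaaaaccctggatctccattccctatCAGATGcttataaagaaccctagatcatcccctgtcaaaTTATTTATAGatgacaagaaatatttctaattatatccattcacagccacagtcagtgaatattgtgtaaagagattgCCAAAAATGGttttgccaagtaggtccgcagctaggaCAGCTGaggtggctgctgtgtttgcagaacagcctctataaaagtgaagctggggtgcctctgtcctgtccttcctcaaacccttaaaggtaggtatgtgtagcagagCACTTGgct
Myh1, chr11:67199852-67200151, plus strand: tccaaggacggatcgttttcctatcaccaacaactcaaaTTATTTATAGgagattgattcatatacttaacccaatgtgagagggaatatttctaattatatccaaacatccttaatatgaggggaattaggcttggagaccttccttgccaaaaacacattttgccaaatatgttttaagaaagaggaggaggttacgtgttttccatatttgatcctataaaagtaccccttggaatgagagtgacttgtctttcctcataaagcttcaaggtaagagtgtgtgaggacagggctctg
Myh2, chr11:67170777-67171076, plus strand: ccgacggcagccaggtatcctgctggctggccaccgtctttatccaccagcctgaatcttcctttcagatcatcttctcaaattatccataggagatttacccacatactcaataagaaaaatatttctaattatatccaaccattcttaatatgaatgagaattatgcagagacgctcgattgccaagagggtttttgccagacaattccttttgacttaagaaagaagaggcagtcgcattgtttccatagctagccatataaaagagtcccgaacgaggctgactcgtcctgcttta
Myh7, chr14:54994500-54994799, minus strand: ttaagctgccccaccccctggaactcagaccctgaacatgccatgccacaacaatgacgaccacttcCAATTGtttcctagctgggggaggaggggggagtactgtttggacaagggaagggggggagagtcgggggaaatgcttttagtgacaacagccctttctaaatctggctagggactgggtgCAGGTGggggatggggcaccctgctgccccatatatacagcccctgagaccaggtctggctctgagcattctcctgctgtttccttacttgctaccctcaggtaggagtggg

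Myh1 and Myh4 carried the same MEF2 letters, TTATTTATAG, starting at -211 and at -182 from the gene start. Myh4 also held a CArG match at -104 and 3 E-boxes, Myh7 held 2 E-boxes, and none of the 4 motifs occurred in the window of Myh2. None of these matches overlapped a match to another motif. Over the 32 windows of the 26 genes, a MEF2 match was found in 6, a CArG match in 3, an MCAT match in 3 and an E-box in 28. In all 32851 windows of the table the shares were 3.19% for MEF2, 1.63% for CArG, 5.36% for MCAT and 72.3% for the E-box. The matches describe letters, not occupied sites.

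Muscle genes differed between the arrays far more than most genes did. The ratio of the highest to the lowest array was at least 2-fold for 31 of the 33 genes, against 13.5% of all genes, and at least 4-fold for 14 of them, against 1.76%. On the log2 scale, where 1 unit is a 2-fold difference, the median range over the 6 arrays was 1.84 for the muscle genes and 0.54 for all genes tested. The exceptions to 2-fold were Atp2a1, the calcium pump of fast fibres, with a range of 0.77, and Casq2, the calsequestrin of slow fibres and heart, with a range of 0.68. Wild-type replicate 2 was the lowest array for 28 of the 33 genes, where 18.1% of all genes were lowest. The highest array was wild-type replicate 1 for 16 genes, KO replicate 1 for 10, KO replicate 3 for 6 and KO replicate 2 for 1. Over all genes these shares were 22.3% for wild-type replicate 1, 12.8% for KO replicate 1 and 13% for KO replicate 3.

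**Figure D1:**
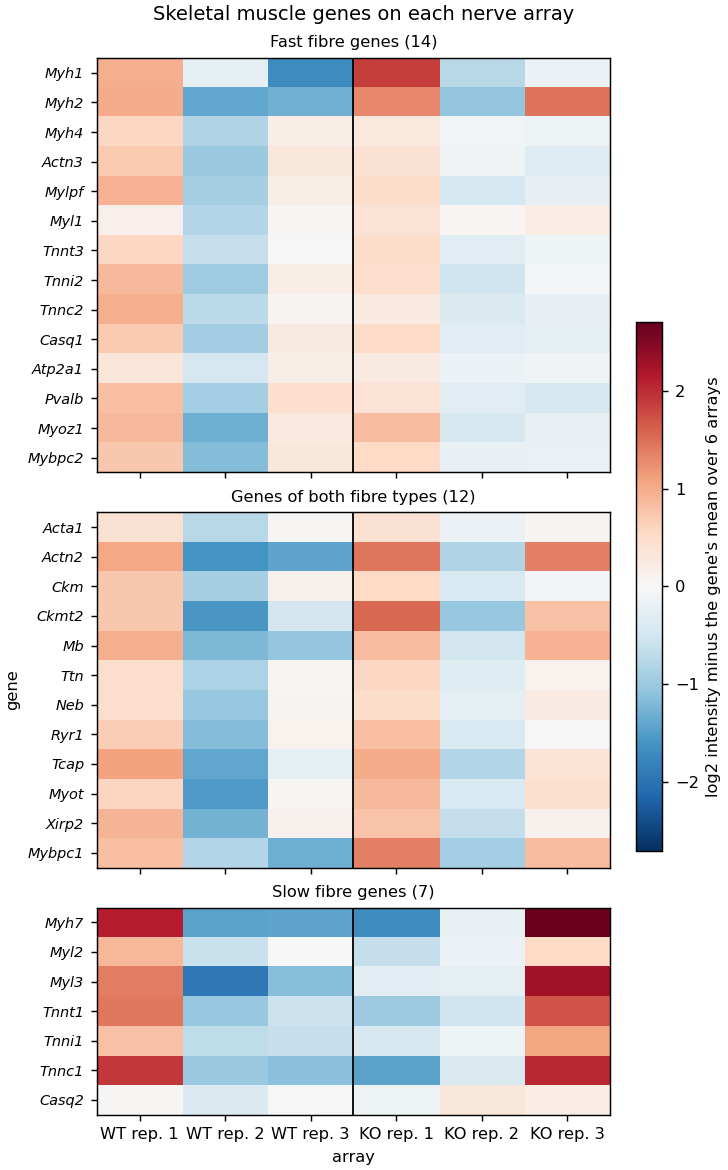
Log2 intensity of each of the 33 genes on each array minus that gene's mean over the 6 arrays, with genes in rows by fibre type and arrays in columns (red above, blue below the gene's mean; the line parts wild type from KO). Wild-type replicate 2 is blue in nearly every row, and the slow fibre genes other than Casq2 are red on wild-type replicate 1 and KO replicate 3.

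Fast and slow fibre genes did not follow the same arrays. For each array, each gene's mean over the arrays was subtracted from its log2 intensity, and the median of these deviations over a list is called the level of that list. For the 14 fast fibre genes it was 0.76, -0.91 and 0.17 on wild-type replicates 1 to 3 and 0.48, -0.30 and -0.17 on KO replicates 1 to 3. For the 7 slow fibre genes it was 1.38, -1.01 and -0.62 for wild-type replicates 1 to 3, then -0.65, -0.20 and 1.71 for KO replicates 1 to 3. Wild-type replicate 1 was thus high for both lists and wild-type replicate 2 low for both, whereas KO replicate 1 was high for fast and low for slow genes and KO replicate 3 was highest for slow genes and below 0 for fast ones. The slow minus the fast level ran from -1.13 on KO replicate 1 to 1.88 on KO replicate 3, the lowest and the highest of the 6 arrays, which belong to 1 genotype.

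**Figure D2:**
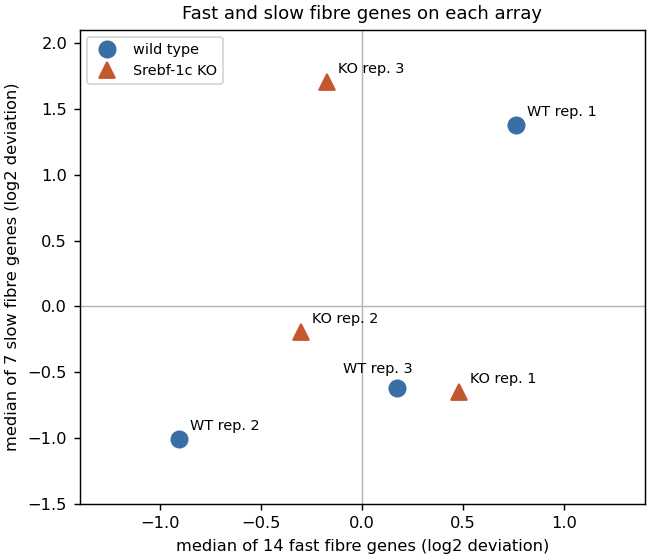
Median log2 deviation of the 7 slow fibre genes (vertical axis) against that of the 14 fast fibre genes (horizontal axis), 1 point per array, circles for wild type and triangles for KO. KO replicate 3 lies at -0.17 for fast and 1.71 for slow genes, and KO replicate 1 at 0.48 and -0.65.

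The highest pair of arrays was wild-type replicate 1 with KO replicate 3 for 6 of the 7 slow fibre genes and for 0 of the 14 fast fibre genes. It was wild-type replicate 1 with KO replicate 1 for 11 of the 14 fast fibre genes and for 0 of the 7 slow ones. Over all genes these pairs were the highest in 6.82% and 8.67%. The genes of a list were measured in the same RNA, so their agreement is 1 property of each array and not independent evidence from each gene.

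Myosin heavy chains differed in which arrays were high and which were low. Myh4, of IIb fibres, stood at 13.81, 12.45 and 13.45 on the log2 scale in wild type and at 13.53, 13.18 and 13.12 in KO, low on wild-type replicate 2 and close together elsewhere. Myh1, of IIx fibres, stood at 11.70, 10.48 and 9.02 in wild type and at 12.60, 9.98 and 10.56 in KO. It had the widest range of the fast fibre genes, 11.9-fold from wild-type replicate 3 to KO replicate 1.
Myh2, of IIa fibres, stood at 11.13, 8.72 and 8.82 in wild type and at 11.42, 9.06 and 11.59 in KO. Its arrays fell into a high group, wild-type replicate 1 with KO replicates 1 and 3, and a low group of the other arrays, parted by 2.08. Myh7, of slow fibres, stood at 10.66, 7.08 and 7.12 in wild type and at 6.84, 8.34 and 11.18 in KO. It was high on wild-type replicate 1 and KO replicate 3, and the highest array lay 20.3-fold above the lowest, the widest range among the 33 genes. These genes have closely related sequences, so a probe set of one may in part measure another.

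**Figure D3:**
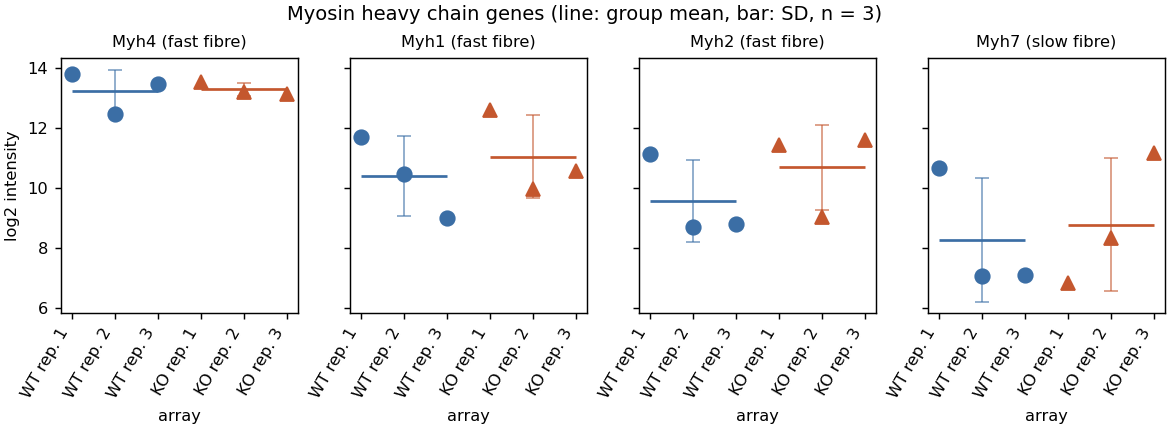
Log2 intensity of the 4 adult myosin heavy chain genes on each array (points), with the group mean (line) and SD (bar, n = 3). Myh7 is near 7 on wild-type replicates 2 and 3 and on KO replicate 1 and above 10 on wild-type replicate 1 and KO replicate 3, while Myh4 spans 1.36.

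Among myosin light chains, Mylpf, the regulatory chain of fast fibres, stood at 11.75, 9.91 and 10.97 in wild type and at 11.30, 10.32 and 10.58 in KO. Myl1, the essential chain of fast fibres, had a range of 1.18 and was highest on KO replicate 1. Myl3, the essential chain of slow fibres and heart ventricle, stood at 9.69, 6.37 and 7.16 in wild type and at 8.01, 8.05 and 10.57 in KO, an 18.4-fold span from the lowest array to the highest. Myl2, the regulatory chain of slow fibres and ventricle, followed the same top pair of arrays with a smaller range, 1.55. It was the dimmest of the 33, at percentile 45.4 of mean intensity over all genes.

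The troponins parted cleanly by fibre type. The slow calcium-binding subunit Tnnc1 stood at 11.45, 8.53 and 8.41 in wild type and at 8.09, 9.15 and 11.57 in KO. Its fast counterpart Tnnc2 stood at 13.12, 11.43 and 12.22 in wild type and at 12.41, 11.75 and 11.91 in KO, where KO replicate 3 was an array of middling level.
The tropomyosin-binding subunits did likewise: slow Tnnt1 stood at 8.92 on wild-type replicate 1 and 9.20 on KO replicate 3 and between 6.46 and 6.94 on the other arrays, and fast Tnnt3 stood between 12.24 on wild-type replicate 2 and 13.43 on wild-type replicate 1. The inhibitory subunits were Tnni1, slow, with 8.88 and 9.16 on those arrays against 7.42 to 7.97 on the rest, and Tnni2, fast, with 12.47 on wild-type replicate 1 and 12.06 on KO replicate 1 at the top. All 3 slow subunits had KO replicate 3 as their highest array and all 3 fast subunits had wild-type replicate 1.

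The remaining fast fibre genes shared their highest and lowest array with Myh4. Actn3, the fast fibre α-actinin of the Z-disc, Mybpc2, the fast myosin-binding protein C, Myoz1, which links α-actinin to calcineurin, Casq1, the calsequestrin of fast fibres, and Pvalb, a cytosolic calcium buffer, were highest on wild-type replicate 1 and lowest on wild-type replicate 2. Their ranges ran from 1.65 for Casq1 to 2.18 for Myoz1. Atp2a1 stood at 13.96, 13.19 and 13.79 in wild type and at 13.88, 13.48 and 13.54 in KO, with the same highest and lowest array and a small range. Of the 14 fast fibre genes, 11 had wild-type replicates 1 and 3 with KO replicate 1 as the highest 3 arrays, against 6.09% of all genes. The other 3 were Myh1, Myh2 and Myl1.

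Of the genes of both fibre types, 9 of 12 had wild-type replicate 1 with KO replicates 1 and 3 as the highest 3 arrays, against 6.73% of all genes. Actn2, the α-actinin of the Z-disc found in all fibres, stood at 11.78, 9.13 and 9.32 in wild type and at 12.19, 9.92 and 12.10 in KO. Myoglobin, Mb, which holds oxygen in oxidative fibres, stood at 10.88, 8.70 and 8.88 in wild type and at 10.74, 9.41 and 10.86 in KO. Ckmt2, the mitochondrial creatine kinase of muscle, stood at 11.08, 8.77 and 9.85 in wild type and at 11.89, 9.32 and 11.12 in KO. In each of these the 3 high arrays were those of Myh2, with wild-type replicates 2 and 3 and KO replicate 2 as the low arrays.
Mybpc1, the slow-type myosin-binding protein C that many fast fibres also make, followed them with 8.95 on wild-type replicate 3 as its lowest value and 11.64 on KO replicate 1 as its highest. The main actin Acta1 stood at 13.84, 12.69 and 13.46 in wild type and at 13.85, 13.28 and 13.52 in KO. It was low on wild-type replicate 2 and had the smallest range of the group, 1.16. Cytosolic creatine kinase, Ckm, the giant filament proteins Ttn and Neb and the calcium release channel Ryr1 had ranges of 1.62, 1.42, 1.52 and 1.99. The Z-disc and actin-binding genes Tcap, Myot and Xirp2 had ranges of 2.49, 2.41 and 2.19. All 7 were lowest on wild-type replicate 2.

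Between the lists, brighter probe sets went with a smaller median range. Within the slow list the brightest gene had a larger range than the dimmest. The fast fibre genes lay between percentiles 90.3 and 99.9 of mean intensity and had a median range of 1.72. The genes of both types lay between percentiles 86.6 and 99.9 and had a median range of 2.19. The slow fibre genes lay between percentiles 45.4 and 83.2 and had a median range of 2.73. Within the slow list the dimmest gene, Myl2, had a range of 1.55 and the brightest, Tnnc1, had 3.48, while Casq2 had 0.68. Arrays compress differences at high intensity, and the part of this in the smaller ranges of the fast fibre genes was not tested. For Ckm, Ryr1 and Xirp2 a second, dimmer probe set was lowest on wild-type replicate 2 too, with ranges of 1.20, 1.37 and 1.22.

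Across all 22180 genes, few stood out on the arrays where the slow fibre genes were high. The gap asked for was 1 on the log2 scale between the lowest of the high arrays and the highest of the rest, a rule set after the values of the muscle genes were seen and given as a description. On wild-type replicate 1 and KO replicate 3 together, 6 genes met it. They were Myh7, Tnnc1, Tnnt1 and Myl3 with gaps of 2.32, 2.29, 1.98 and 1.64, then Myoz2, a Z-disc protein of slow fibres and heart, at 1.15 and Cdh12, a cadherin, at 1.14. Cdh12 was dim, at percentile 15.1 of intensity.
On wild-type replicate 1 with KO replicates 1 and 3, 12 genes met it, of which 5 belong to the 33: Myh2, Actn2, Mybpc1, Mb and Ckmt2. The other 7 were Lmod2, which lengthens thin filaments, at 1.49, Ankrd2 at 1.34, Smtnl1 at 1.18, the small heat shock protein gene Hspb7 at 1.11, Vgll2 at 1.06, the coenzyme Q gene Coq8a at 1.04 and again Myoz2 at 1.01. On wild-type replicates 1 and 3 with KO replicate 1, the order of the fast fibre genes, 1 gene met it, Ddit4l at 1.10, and none of the 33 did.

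Knockout against wild type gave no call for any of the 33 genes. The test was limma, a linear model that draws each gene's variance toward a common value. In limma 0 of 33 passed an adjusted p of 0.05 over all genes, against 0.00451% of all genes, which is Srebf1 alone. The smallest adjusted p among them was 0.877, for Myl1. At an unadjusted p under 0.05 there were also 0 of 33, where 2.34% of all genes were higher and 3.49% lower. The test with each gene's own variance alone gave 0 of 33 as well. The criterion of the study, an unadjusted p under 0.05 with at least a 1.5-fold change, was met by 0 of 33, against 1.19% of all genes, 0.64% higher and 0.555% lower. With at least a 2-fold change it was also met by 0 of 33, against 0.153% of all genes. In 0 of 33 genes did the 2 genotypes part without overlap, KO above or KO below, against 4.08% and 8.21% of all genes.

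A mean higher in KO was seen for 25 of the 33 genes, against 43.1% of all genes, and the median log2 fold change was 0.22 against -0.03 for all genes. By fibre type the count was 7 of 14 fast fibre genes with a median of 0.02, 6 of 7 slow fibre genes with a median of 0.25 and 12 of 12 genes of both types with a median of 0.35. With quantile normalization repeated, or with arrays brought to 1 median, 23 of the 33 genes were higher, against 48.5% and 33.3% of all genes, and the fast fibre median was -0.01 and -0.03. The genes that turned were Myh4 and Ckm. These medians are smaller than the spread of the list levels between arrays of 1 genotype, which had an SD of 0.67 for fast, 1.27 for slow and 0.82 for shared genes. Without wild-type replicate 2 the median over the 33 genes was -0.24, without KO replicate 1 it was -0.0079 and without wild-type replicate 1 it was 0.59, so that 1 array decided its sign. The slow fibre median was -0.50 without KO replicate 3 and 0.86 without wild-type replicate 1.

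Actn2 had the largest difference, 1.33 ± 0.85 (SE) on the log2 scale with a 95% interval from -0.67 to 3.32 (adjusted p = 0.887 in limma). Its wild-type mean was 10.08 ± 1.47 (SD, n = 3) and its KO mean 11.40 ± 1.28 (SD, n = 3), and the groups overlapped. Myl3 followed at 1.14 ± 0.98 (SE) and Myh2 at 1.13 ± 0.85. Ckmt2, Mybpc1 and Mb stood at 0.88 ± 0.76, 0.86 ± 0.71 and 0.85 ± 0.63. In each of these genes KO replicate 3 was high and wild-type replicates 2 and 3 were low.
Myh7 stood at 0.50 ± 1.30, with an interval from -2.57 to 3.56, and Tnnc1 at 0.14 ± 1.07. Each genotype held 1 high array for these genes. The brightest fast fibre genes gave narrower ones: Myh4 stood at 0.04 ± 0.33 with an interval from -0.74 to 0.83, and Atp2a1 at -0.01 ± 0.22 with an interval from -0.54 to 0.51. On the low side Tnnc2 and Pvalb both stood at -0.23, with SE 0.41 and 0.45.

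**Figure D4:**
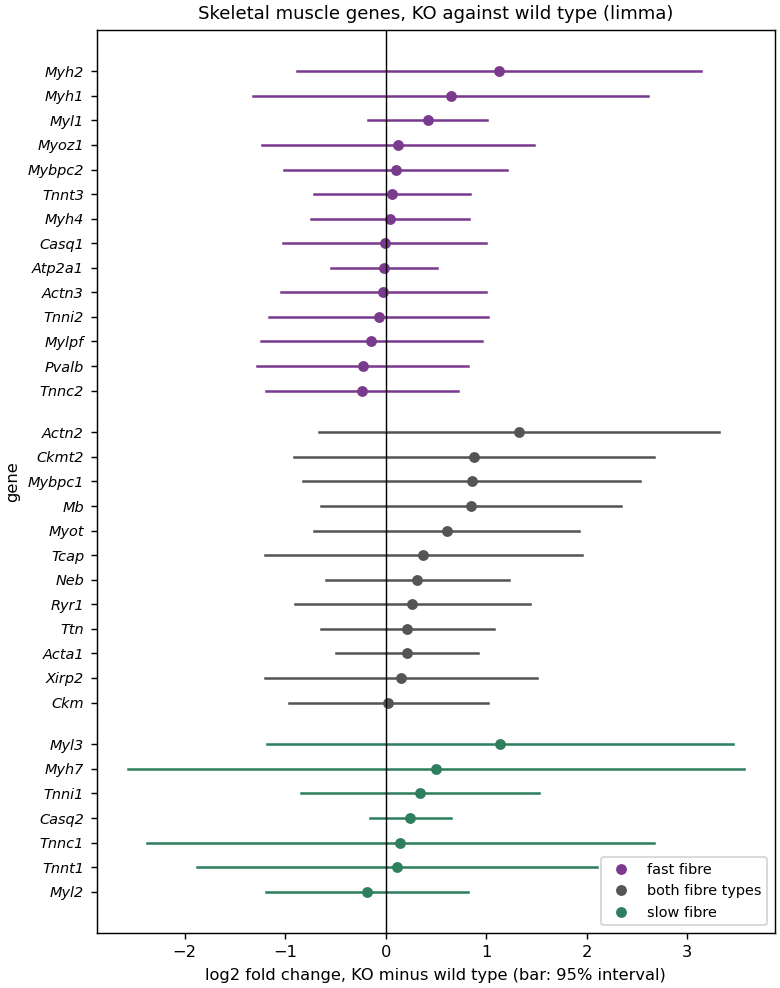
Log2 fold change of each of the 33 genes, KO minus wild type (point), with its 95% interval from limma (bar), grouped by fibre type and sorted by size. Every interval spans 0, from the narrowest, that of Casq2 (-0.16 to 0.65), to the widest, that of Myh7 (-2.57 to 3.56).

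Spread between arrays of 1 genotype was large for these genes. The residual SD had a median of 0.76 over the 33 genes and of 0.20 over all genes, and it ran from 0.22 for Casq2 to 2.13 for Myh7. The 95% interval of a fold change had a median half-width of 1.11 on the log2 scale for the muscle genes, which is 2.16-fold, against 0.37 for all genes. The narrowest intervals were those of Casq2, from -0.16 to 0.65, and Atp2a1.

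Single arrays moved which genes met the criterion of the study. Without wild-type replicate 1, the array with high levels of both fibre types, it was met by 4 of the 33 genes and by 435 of all 22180. The 4 were all higher in KO: Actn2 at 2.18, Myl3 at 2.11, Myh2 at 1.92 and Mb at 1.55. Without KO replicate 2 it was met by Actn2, Myh2, Ckmt2 and Mybpc1, with 2.07, 1.95, 1.61 and 1.53, and by 552 of all genes. Without wild-type replicate 2 it was met by Pvalb alone among the 33, lower in KO at -0.74, and by 362 of all genes. With all arrays it was met by 265 of all genes, so the count over all genes rose in each of these settings too. The adjusted p of these genes stayed at 0.712 or above.

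Other genes of muscle, from lists made by knowledge of their roles, were together nearer the fast than the slow fibre list. Of 63 listed, 60 were measured, and their level was 0.79, -0.95 and 0.02 for wild-type replicates 1 to 3, then 0.54, -0.45 and -0.01 for KO replicates 1 to 3. On KO replicates 1 and 3 the fast fibre level was 0.48 and -0.17, and the slow fibre level was -0.65 and 1.71. In KO against wild type 0 of 60 passed the adjusted p in limma, against 0.00451% of all genes. At an unadjusted p under 0.05 there were also 0 of 60, where 2.34% of all genes were higher and 3.49% lower. A higher mean in KO was seen for 39 of 60, which is 65%, against 43.1% of all genes. The median log2 fold change was 0.06, against -0.03 for all genes. All 19 other genes of the sarcomere and Z-disc varied at least 2-fold between arrays, against 13.5% of all genes. The widest was Myoz2 at 12.8-fold. It stood at 10.34, 7.13 and 7.48 in wild type and at 9.19, 8.17 and 10.81 in KO. Its highest arrays were those of Myh7, but KO replicate 1, the lowest array for Myh7, came next.
All 12 genes of excitation-contraction coupling varied at least 2-fold, and the widest was Sln, sarcolipin, an inhibitor of the calcium pump, at 8.80 on KO replicate 3 and 5.21 on wild-type replicate 2. All 11 genes of muscle energy supply did so too, with Cox7a1, the heart and muscle form of a cytochrome c oxidase subunit, widest at 12.03 on KO replicate 1 and 9.32 on wild-type replicate 2.

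Of 10 genes of muscle stem cells and of developing muscle, 4 varied at least 2-fold, which is 40% against 13.5% of all genes. Among markers of satellite cells, Pax7 stood between 6.68 and 7.04, whereas Cdh15, M-cadherin, varied 2.84-fold. Myf5 and Megf10 of the same list varied little, 1.39-fold and 1.43-fold. The myogenic factor Myod1 varied 2.81-fold, and both Cdh15 and Myod1 were highest on wild-type replicate 1 and lowest on wild-type replicate 2, as many fibre genes were. Vgll2 varied 4.65-fold, and the embryonic and perinatal myosins Myh3 and Myh8 lay at percentiles 13.7 and 29.4 of intensity. Myf6, the myogenic factor that mature fibres keep, varied most, 5.55-fold, with 10.74 on wild-type replicate 1 and 8.27 on wild-type replicate 2. Of 8 measured genes of the neuromuscular junction, 2 varied at least 2-fold, which is 25%. The level spanned 0.70 between arrays for the 10 genes above and 0.79 for these 8, against 1.74 for the 60 together. Megf10 of the first list and Rapsn of the second were highest on wild-type replicate 2. Chrna1, the α subunit of the acetylcholine receptor, stood at 7.81, 5.11 and 7.26 in wild type and at 7.24, 6.09 and 7.53 in KO.

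Several slow fibre genes are also made by heart, and genes that define heart muscle were therefore listed. The cardiac level spanned 0.23 between arrays, against 2.71 for the slow fibre genes. The atrial light chain Myl7 and the natriuretic peptide gene Nppa lay at percentiles 18.5 and 33.5 and had ranges of 0.58 and 0.60. Of the 10 cardiac genes 3 varied at least 2-fold, which is 30% against 13.5% of all genes. They were Actc1, Tnnt2 and Ryr2, with ranges of 1.62, 1.36 and 1.30. Actc1, the cardiac actin, and Tnnt2, the cardiac troponin T, were highest on wild-type replicate 1 and lowest on wild-type replicate 2, as the fast fibre list was. The slow fibre list was also lowest on wild-type replicate 2, but it was highest on KO replicate 3.

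Smooth muscle genes, which mark vessel walls, ran against the skeletal muscle genes on several arrays: their level was -0.65, 0.67 and 0.87 for wild-type replicates 1 to 3, then -0.32, 0.47 and -1.05 for KO replicates 1 to 3. Cnn1, calponin, was lowest on KO replicate 3 at 6.30 and highest on wild-type replicate 3 at 10.75. Genes of adipocytes were high on other arrays again, with levels of -0.96, -0.10 and 1.80 for wild-type replicates 1 to 3, then -1.09, 1.53 and -0.999 for KO replicates 1 to 3, so that wild-type replicate 3 and KO replicate 2 were rich in them. Genes of myelinating Schwann cells, the main cells of the nerve itself, were measured for 7 of 10 listed. Of these 0 of 7 varied 2-fold, with Sox10 the nearest at 1.99-fold, against 13.5% of all genes. Their median range was 0.58, close to the 0.54 of all genes, and their level spanned 0.21. The part of these other tissues in the levels of the muscle genes was not tested.

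**Figure D5:**
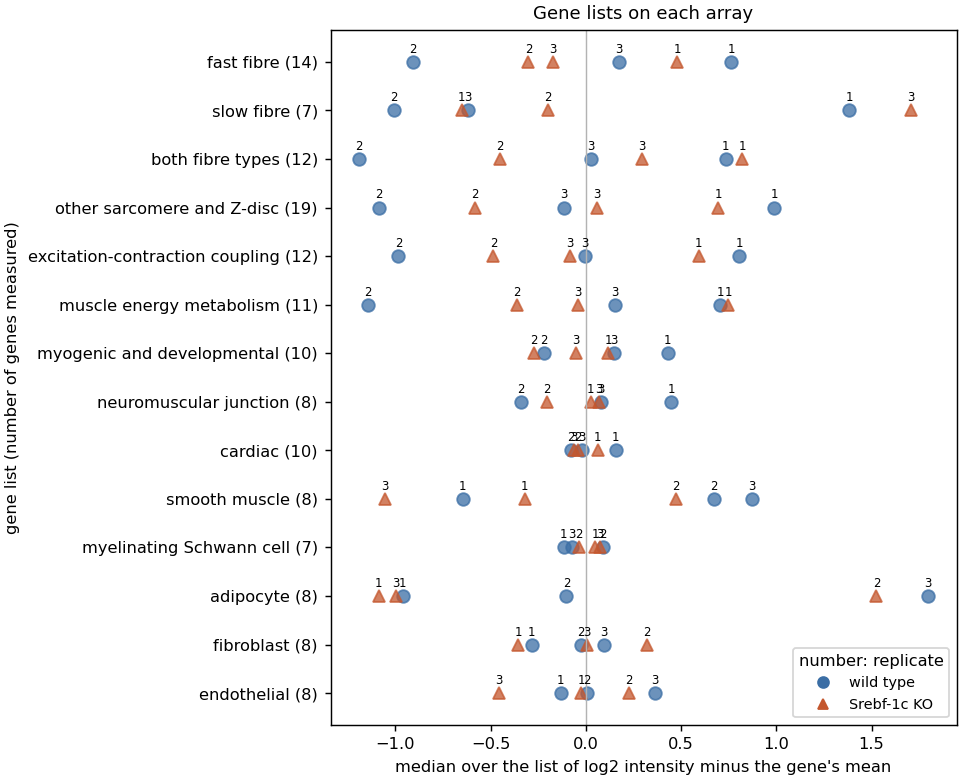
Level of each gene list on each array, as the median over its genes of the deviation from the gene's mean in log2 units (horizontal axis; circles wild type, triangles KO, digits the replicate). The fast, slow and shared fibre lists span 1.67, 2.71 and 2.01 between arrays, and the cardiac and myelinating Schwann cell lists span 0.23 and 0.21.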

How the data were processed

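RNA of 6 whole sciatic nerve samples, grouped by their titles into 3 per genotype, was labelled with the Affymetrix WT kit, per the labels' protocols. The deposited values are probe set intensities. Per the series' design text, the authors computed them with RMA, which corrects background, normalizes across arrays and combines probes, in TAC and Partek software. Their versions are not known here. The build mm8 stands in the submitters' processing notes. No source states the scale, and it was taken as linear since values span 3.67 to 23738, with array medians of 115.5 to 122.6. A normalization across arrays can shrink differences shared by many genes. The number of arrays limits the precision.

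Log2 was taken with no pseudocount. The platform annotation gave 1 gene symbol to 23521 of 41077 probe sets, several to 1814 and none to 15742, which left 22180 genes, and the other probe sets were left out. KO minus wild type was tested in limma 3.58.1 (lmFit, eBayes) under R 4.3.3, two-sided, with Benjamini-Hochberg adjustment over the 22180 genes. The fit was also checked on simulated data, with variances taken from the fit of these arrays. Tables and plots were made with pandas 2.3.3, numpy 2.4.6 and matplotlib 3.10.9. All 33 genes are named, with values on every array for the heavy chains and for the brightest and the most variable gene of each fibre type group. Other muscle genes are named where they had the widest range of their list. Values of further genes were added after they were seen. The genes and lists were chosen with earlier results of these data known. Of 5 erythroid genes listed, 0 were measured under the rule of 1 symbol. Alternatives were array weights, a replicate block, the study's ANOVA, a robust prior with an intensity trend, quantile normalization, arrays at 1 median, the mean of probe sets, tests without the dimmest 25% or 50% of genes, limits of 0.10 for the adjusted p and 2 for the fold, and each array left out in turn. Promoter windows come from RefSeq on GRCm38.p6.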

Additional observations from a re-analysis of the deposited data

How the results depend on the processing

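In every alternative run 0 of the 33 genes passed the adjusted p, the limit of 0.10 included. The smallest adjusted p among them ran from 0.658 with array weights to 0.9996 without KO replicate 3. The count past the criterion of the study, 0 of 33, moved to 1 with array weights (Actn2; 359 of all 22180 genes, against 265 in the reported fit) and to between 0 and 4 with an array left out (231 to 552 of all genes). With a replicate block it was 3 (Actn2, Ckmt2 and Myot; 288 of all genes). Whether the replicate numbers pair the samples is not known here. Deviations of same-numbered arrays from their group means correlated at 0.12, 0.01 and -0.23. Those of differently numbered arrays correlated at -0.26 to 0.28, and correlations over all genes cannot decide whether samples were paired. Among all genes the 1 call, Srebf1, was lost (0 genes) with the replicate block, the ANOVA, quantile normalization and arrays at 1 median, and with an array left out the count was 0 to 1. List medians and ranges moved by less than the SD of the list level between arrays in each setting run; with an array left out the median log2 fold change ran from -0.47 to 0.35 for fast fibre genes and from -0.11 to 0.84 for genes of both types. Myl2 is not among the brighter 50% of genes and has no value there. Signs near 0 turned for Myh4 with quantile normalization (-0.011) and arrays at 1 median (-0.0018), and for Ckm with these (-0.065 and -0.019) and the mean of probe sets (-0.029). The cause was not tested.

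With 1 array left out, 25 of 33 log2 fold changes took either sign. The ranges were, for fast fibre genes, Myh1 -0.13 to 1.30, Myh4 -0.35 to 0.33, Actn3 -0.53 to 0.33, Mylpf -0.63 to 0.29, Tnnt3 -0.24 to 0.35, Tnni2 -0.56 to 0.35, Tnnc2 -0.65 to 0.20, Casq1 -0.48 to 0.34, Atp2a1 -0.24 to 0.14, Pvalb -0.74 to 0.12, Myoz1 -0.50 to 0.59 and Mybpc2 -0.46 to 0.48. For slow fibre genes they were Myh7 -0.70 to 1.69, Myl2 -0.54 to 0.21, Tnnt1 -0.71 to 0.86, Tnni1 -0.11 to 0.82 and Tnnc1 -0.84 to 1.14. For the rest they were Acta1 -0.11 to 0.47, Ckm -0.41 to 0.40, Ttn -0.16 to 0.51, Neb -0.11 to 0.64, Ryr1 -0.25 to 0.67, Tcap -0.23 to 1.01, Myot -0.0031 to 1.06 and Xirp2 -0.44 to 0.65. The 8 that kept a positive sign were Myh2, Myl1, Myl3, Casq2, Actn2, Ckmt2, Mb and Mybpc1.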
